A study of Mus musculus with 8 samples.

Results

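Wild-type EBF1 was compared with an empty vector in mouse progenitors that lack the Ebf1 gene. The comparison rests on 5 of the 8 arrays of the series, 3 that the labels mark Ebf1wt (EBF1wt below) and 2 marked Empty, chosen by that label. All 5 samples were Ebf1-/- fetal liver cells of the C57Bl/6 strain, enriched for c-Kit and plated on OP9 stromal cells with IL-7 at 5 ng/ml and with stem cell factor and Flt3 ligand at 10 ng/ml each. They received a pMys retrovirus carrying GFP alone (Empty) or GFP with wild-type EBF1 (EBF1wt), were sorted for GFP 36 h later, and gave 0.2 ug of total RNA for Cy3-labelled cRNA on one-colour Agilent arrays. The other 3 arrays hold EBF1-H240A and do not enter the difference itself. They enter the estimate of the spread, the scaling target, the background filter and the choice of each gene's probe. For 108 tested genes no Empty or EBF1wt array measured the gene well above background. Whether replicate arrays stem from separate cultures or animals is not stated in the labels, and p-values therefore cover only the scatter of these samples, which may be technical.

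EBF1 is a DNA-binding transcription factor that, with its partners, opens chromatin and switches on the B-lymphocyte programme in lymphoid progenitors. Members of the same family act outside blood, in adipocytes, olfactory neurons and muscle, where they are known regulators of differentiation. The account below therefore covers families outside the lymphoid programme: signalling receptors, ion channels, contractile, cytoskeletal and neuronal genes, lipid and redox enzymes, chromatin and nuclear regulators, surface and innate receptors, and the housekeeping machinery of the cell.

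Of 16306 genes tested, 6263 (38.4%) were called at a limma adjusted p under 0.05, with 2796 (17.1%) higher and 3467 (21.3%) lower with EBF1wt. Among the called genes, 925 (5.67% of those tested) rose and 457 (2.8%) fell at least 2-fold by the fitted change. The median log2 difference over all genes was -0.04. Scaling to a common median moved it to -0.13 and the calls to 2214 higher and 4937 lower. Without Empty 1 the number that fell was 1990. With slide as a blocking factor the count was 5782, and it was 133 within slide 1 (Empty 1 and EBF1wt 2, the spread coming from EBF1-H240A arrays alone) and 398 within slide 2 (Empty 2, EBF1wt 1 and EBF1wt 3). The arrays of both groups did not overlap for 9996 genes (61.3%), so a lack of overlap by itself is common here. Signals below are log2 of the scaled intensity, and differences are EBF1wt minus Empty ± the model's standard error (n = 3 and 2 arrays). The naming rule took the largest called differences, so that its 128 genes do not overlap follows from the choice and supports nothing. Where no array of a group measured a gene well above background, its change has only a bound, written as at least N-fold. Where only some arrays of a group did, no bound is given, and the difference rests in part on signals at background. Signals, differences and bounds are those of a gene's brightest probe, and its other probes can differ by less. On each array 54.6% to 59.6% of probes passed the background flag. Ebf1 itself differed by 0.03 ± 0.09 at its probe (adjusted p = 0.805), so that probe does not check the labels, and its place relative to the vector's insert was not determined.

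**Figure D1:**
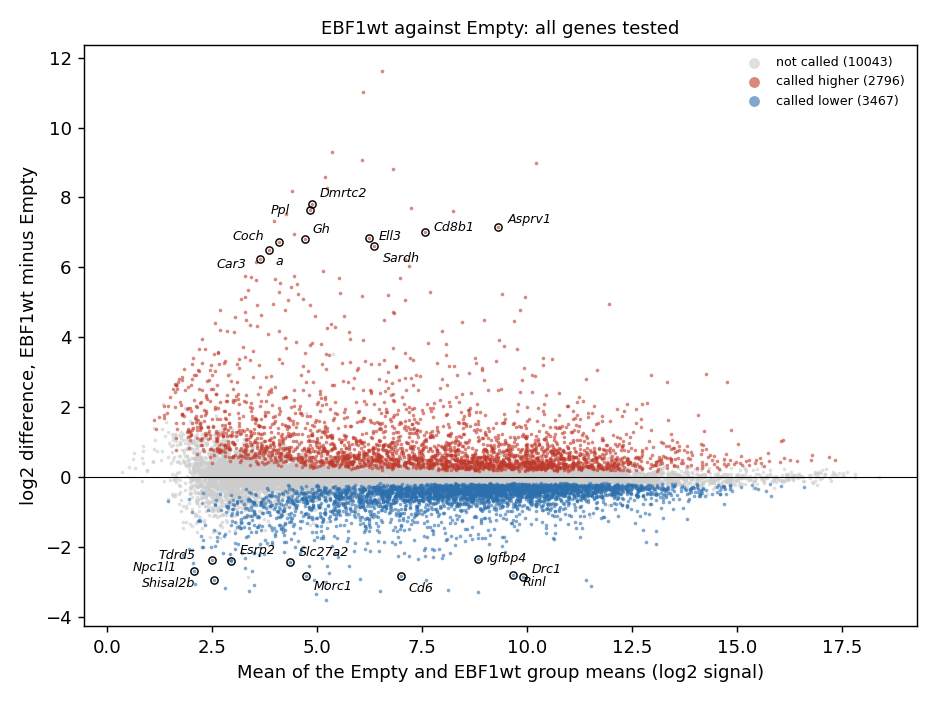
Each point is a gene, with the mean of the Empty and EBF1wt group means of log2 signal on the x axis and the log2 difference (EBF1wt minus Empty) on the y axis; 2796 genes called higher, 3467 called lower and 10043 not called are coloured apart. Circles mark the 10 largest increases and 10 largest decreases outside the gene lists, from 7.82 for Dmrtc2 to -2.95 for Shisal2b; unmarked points beyond them belong to lists or to other groups of genes.

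Markers of blood progenitors were measured in both groups, 11 of them on both Empty arrays and 10 on each EBF1wt array. Of the 11 tested markers 4 fell, 2 rose and 5 did not pass, and their summed signal was 36700 and 34800 on the Empty arrays against 21000, 22200 and 21900 with EBF1wt, or 19200 and 18700 against 17000, 17500 and 17400 without Cd34. Gata2 was not well above background on any of these 5 arrays, and Ptprc, Spi1, Myb and Runx1 did not pass. Markers of the OP9-like stroma rose in 6 of 16 tested genes and fell in 0, with summed signals of 1240 and 1120 on the Empty arrays and 2140, 2200 and 2540 with EBF1wt. Without Pdgfrb these sums were 855 and 703 against 1040, 1020 and 1340, and EBF1wt 3 was the highest. Lum, Pdgfra, Postn and Thbs1 of that list were not well above background on any of the 5 arrays. Erythroid markers fell in 4 of 5 tested genes, with summed signals of 10900 and 11900 against 2950, 2710 and 2410, or 2650 and 2620 against 1890, 1720 and 1470 without Hbb-bt, while Klf1 was not well above background. Macrophage markers had summed signals of 8350 and 8190 against 7460, 7310 and 7150, in which Adgre1 was the brightest with Empty (mean log2 12.03). Their median log2 signal went the other way, 8.84 and 9.24 against 10.29, 10.48 and 10.59, the last 3 values being those of Csf1r. Of 5 tested, Csf1r rose (1.42 ± 0.15) and Adgre1 fell (-0.72 ± 0.13), and C1qa, C1qc, Cd163 and Vsig4 were at background. Of 3 tested mast cell markers Cpa3 fell and Cma1 rose, and Alb, Afp, Apoa1 and Ttr of the hepatocyte list were at background, while Ahsg and Trf fell. Of 5 tested endothelial markers Egfl7 and Esam rose and Cdh5 was at background. In sorted bulk samples, fewer cells of a type and less RNA per cell cannot be told apart, and the part of these shifts in the results below was not tested.

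**Figure D2:**
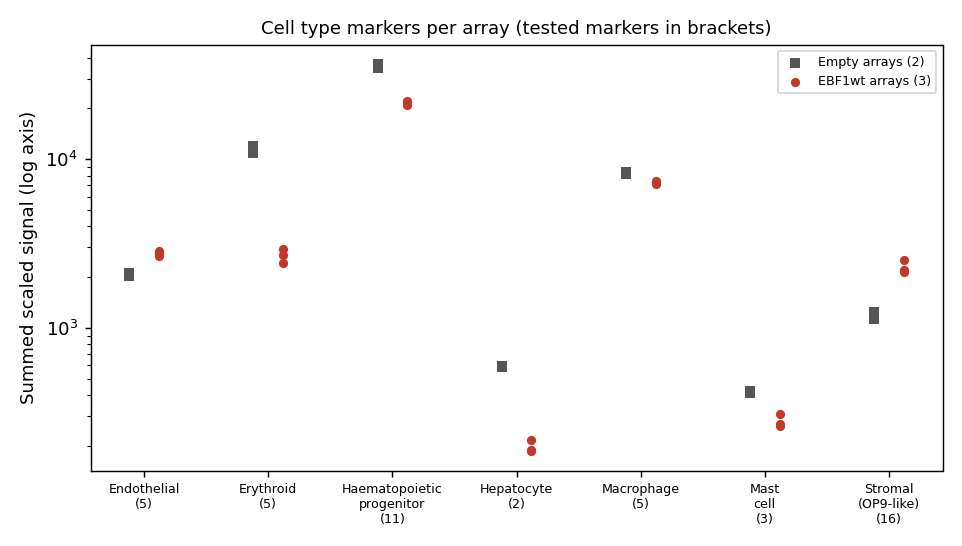
Summed scaled signal (log axis) of the tested markers of each cell type on every Empty (squares) and EBF1wt (circles) array, with the number of tested markers in brackets. Stromal sums were 1120 to 1240 with Empty and 2140 to 2540 with EBF1wt, and erythroid sums 10900 to 11900 against 2410 to 2950.

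The largest increases outside the gene lists included genes best known from testis, epidermis, inner ear and pituitary. Dmrtc2, a DM-domain factor of male germ cells, had signals of 0.80 and 1.16 on the Empty arrays and 8.91, 8.81 and 8.70 on the EBF1wt arrays, at least 79.6-fold higher (7.82 ± 0.13, adjusted p = 5.34e-07). Asprv1, a retroviral-like protease of the epidermis, went from 5.62 and 5.87 to 12.80, 12.94 and 12.97, a 143-fold rise (7.16 ± 0.09, adjusted p = 1.99e-07). Asprv1 was measured in both groups. Ppl, which encodes the cornified-envelope protein periplakin, moved from 1.11 and 0.94 to 9.07, 8.44 and 8.48. It was at least 72-fold higher at its brightest probe, while its other kept probe differed by 2.95. Cd8b1, the beta chain of the CD8 coreceptor, rose 128-fold, from 3.90 and 4.25 to 10.94, 11.13 and 11.14. Ell3, a member of the ELL family of transcription elongation factors, was measured on 1 of the 2 Empty arrays and rose from 2.29 and 3.39 to 9.72, 9.56 and 9.72 (6.83 ± 0.30).

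Gh, the growth hormone gene, read 0.60 and 2.01 without EBF1 and 8.12, 8.12 and 8.15 with it, at least 49.8-fold higher. Sardh, the mitochondrial sarcosine dehydrogenase, was dim but measured on the Empty arrays (3.08 and 3.05) and rose 97.4-fold to 9.81, 9.51 and 9.70. Coch, which encodes the inner-ear matrix protein cochlin, rose at least 31.4-fold, the agouti gene a, a signalling protein of pigmentation, at least 24.4-fold, and Car3, a carbonic anhydrase of muscle and fat, at least 19.3-fold. Their EBF1wt signals lay between 6.37 and 7.51, and both Empty arrays were at background for each. In mm9 the Dmrtc2 probe lies at 25662444 to 25662503 on chromosome 7, the Asprv1 probe at 86579351 to 86579410 on chromosome 6, the Sardh probe at 27044997 to 27045056 on chromosome 2 and the Gh probe spans 106162492 to 106162735 on chromosome 11.

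The largest decreases outside the lists were smaller. Drc1, a ciliary dynein regulatory protein gene, fell from 11.47 and 11.19 to 8.66, 8.33 and 8.42 (-2.86 ± 0.16, adjusted p = 3.35e-05). Rinl, a RIN-family exchange factor for Rab5 GTPases, fell from 11.03 and 11.12 to 8.22, 8.28 and 8.31 (-2.81 ± 0.07), and its 3 kept probes moved the same way. Cd6, a scavenger-receptor-family glycoprotein of T cells, dropped from 8.43 and 8.41 to 5.32, 5.82 and 5.63 (-2.83 ± 0.16), and its other kept probe differed by -1.02. Both groups were well measured for these genes, and their arrays lay at least 2 log2 units apart. Morc1 (-2.84 ± 0.26), a germ-cell silencing factor, and Slc27a2 (-2.43 ± 0.22), a very-long-chain fatty acid transporter, also fell, with 2 of the 3 EBF1wt arrays measured. Igfbp4, an IGF-binding protein, fell by 2.34 ± 0.33, and EBF1wt 3 (6.96) was the lowest of its arrays. Shisal2b (at least 2.46-fold lower), Tdrd5 (at least 1.96-fold) and the sterol transporter Npc1l1 (at least 1.62-fold) were lost to background, and with normexp background correction none of the 3 passed (adjusted p = 0.414, 0.0657 and 0.701). The splicing factor Esrp2 was at least 2.7-fold lower (adjusted p = 0.0202) and did not pass without Empty 1, Empty 2, EBF1wt 2 or EBF1wt 3 (adjusted p = 0.0967, 0.0766, 0.0548 and 0.0553) or with normexp (0.405).

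**Figure D3:**
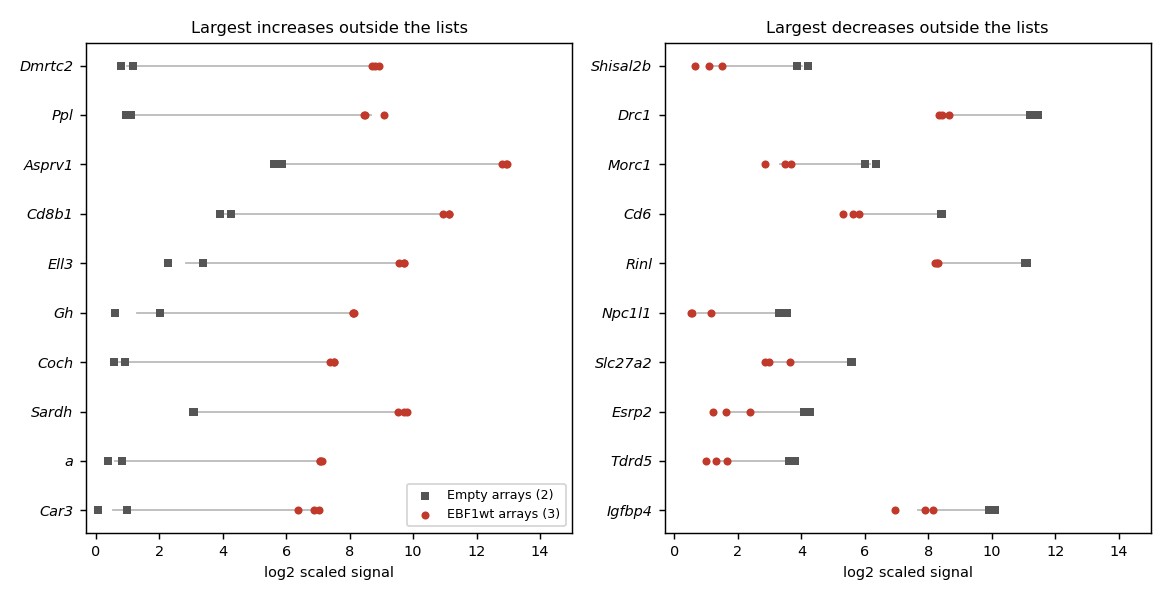
Log2 scaled signal on each Empty (squares) and EBF1wt (circles) array for the 10 largest increases (left) and 10 largest decreases (right) outside the gene lists; grey lines join the group means. That every gene has non-overlapping arrays follows from the choice of the largest called differences.

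Some increases lay next to one another along the chromosomes. Of 13654 tested genes that could be placed in the order of the reference annotation (83.7% of those tested), 835 were called at least 2-fold higher. The nearest tested gene on at least 1 side was also called at least 2-fold higher for 244 of them (29.2%), against 11.5% of all placed genes. The share was 23.5% when neighbours whose symbols start with the same 3 letters were not counted. Of 391 placed genes called at least 2-fold lower, 83 (21.2%) had such a neighbour, against 5.6% of all placed genes. Both shares were chosen after the data were seen and carry no test, and shared or overlapping transcripts were not tested. Among the named genes, 16 of 56 placed risers had a risen neighbour. Gh stands beside Cd79b, a B cell receptor subunit (4.94, adjusted p = 5.34e-07), and beside Tcam1 (1.35), and Clec4g stands beside the IgE receptor gene Fcer2a (5.64). Cd8b1 adjoins Cd8a (5.45, adjusted p = 0.00014), Asprv1 adjoins Mxd1 (1.63), a MAX-binding repressor, and Ckm adjoins Klc3 (2.55). Neu1 lies next to Slc44a4 (5.06), a choline transporter-like gene, and Dgat2 next to Mogat2 (1.31), a monoacylglycerol acyltransferase.

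The consensus bound by EBF1, TCCCNNGGGA, reads the same on both strands. It was present in 297 of 32851 RefSeq promoters (0.904%; GRCm38.p6, 250 bases before to 50 after a start) and in 1.23% of the 10890 tested genes with a promoter in that table. Of the 57 named genes that rose at least 2-fold, 40 had a promoter in that table, and the 3 shown here held the motif wholly upstream of the start, a count from which nothing is read. Promoters were at hand for 68.2% of the genes called at least 2-fold higher, below the 80% taken as the minimum for comparing sets, so that comparison is void and no share by direction is given. The 3 promoters are shown because these named genes hold a match, given in capitals, 5′ to 3′ on the strand of the gene. A match is a description of the letters and not evidence of binding.

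Bases around the match upstream of Ckm, Chst3 and Il4i1 were as follows.
Ckm: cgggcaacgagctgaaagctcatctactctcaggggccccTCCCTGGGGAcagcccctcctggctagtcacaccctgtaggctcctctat
Chst3: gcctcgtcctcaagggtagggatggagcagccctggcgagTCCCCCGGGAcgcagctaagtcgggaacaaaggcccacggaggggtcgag
Il4i1: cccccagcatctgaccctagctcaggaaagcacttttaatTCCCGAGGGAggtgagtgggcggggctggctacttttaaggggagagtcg

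The first window is chr7:19410976-19411065 on the plus strand, the second chr10:60219409-60219498 on the minus strand and the third chr7:44836187-44836276 on the plus strand of GRCm38.p6. The match begins 78 bases before the start of Ckm, 198 before that of Chst3 and 61 before that of Il4i1. Ckm, the muscle creatine kinase, read 0.78 and 0.99 with Empty and 4.67, 4.31 and 4.28 with EBF1wt (at least 3.81-fold higher, adjusted p = 0.000376). Chst3, which adds sulfate to chondroitin, went from 4.37 and 4.63 to 7.93, 7.78 and 7.73 (9.94-fold, 3.31 ± 0.16, adjusted p = 1.97e-05). Il4i1, a secreted L-amino-acid oxidase, rose 2.86-fold from 10.12 and 10.33 to 11.58, 11.75 and 11.89 (1.52 ± 0.14). All 3 were named for the size of their rise, so a gap wider than the spread of the arrays follows from the choice.

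The 27 gene lists differed in how many members moved and which way. Their medians lay above the all-gene median in 15 lists, and that number was 15 to 21 over the alternatives tried. Among tetraspanin, galectin, annexin and S100 genes 25 of 52 were called higher (48.1%), and among adipocyte and lipid droplet genes 12 of 29 (41.4%), beside 17.1% of all genes. Among amino acid, one-carbon and tRNA synthetase genes 35 of 84 were called lower (41.7%), beside 21.3% of all genes. The endoplasmic reticulum genes had 25 of 73 lower (34.2%), which was 12 without Empty 1. With the 75th-percentile scaling 4 of 47 proteasome and 14 of 107 oxidative phosphorylation genes were called, but scaling to a common median called 26 and 24 of them lower. No order of the lists is drawn from these shares. Counts of every list below are to be read beside 17.1% higher and 21.3% lower over all genes. The background filter admits genes seen only with EBF1 more readily than genes seen only in Empty. Its part in the shares was not tested. A range given with a list's counts is that over the alternatives, the fits within a slide left out. Genes named below beyond the 2 largest increases and decreases of a list were picked after their values were seen, from those whose call held in all alternatives other than the fits within a slide.

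**Figure D4:**
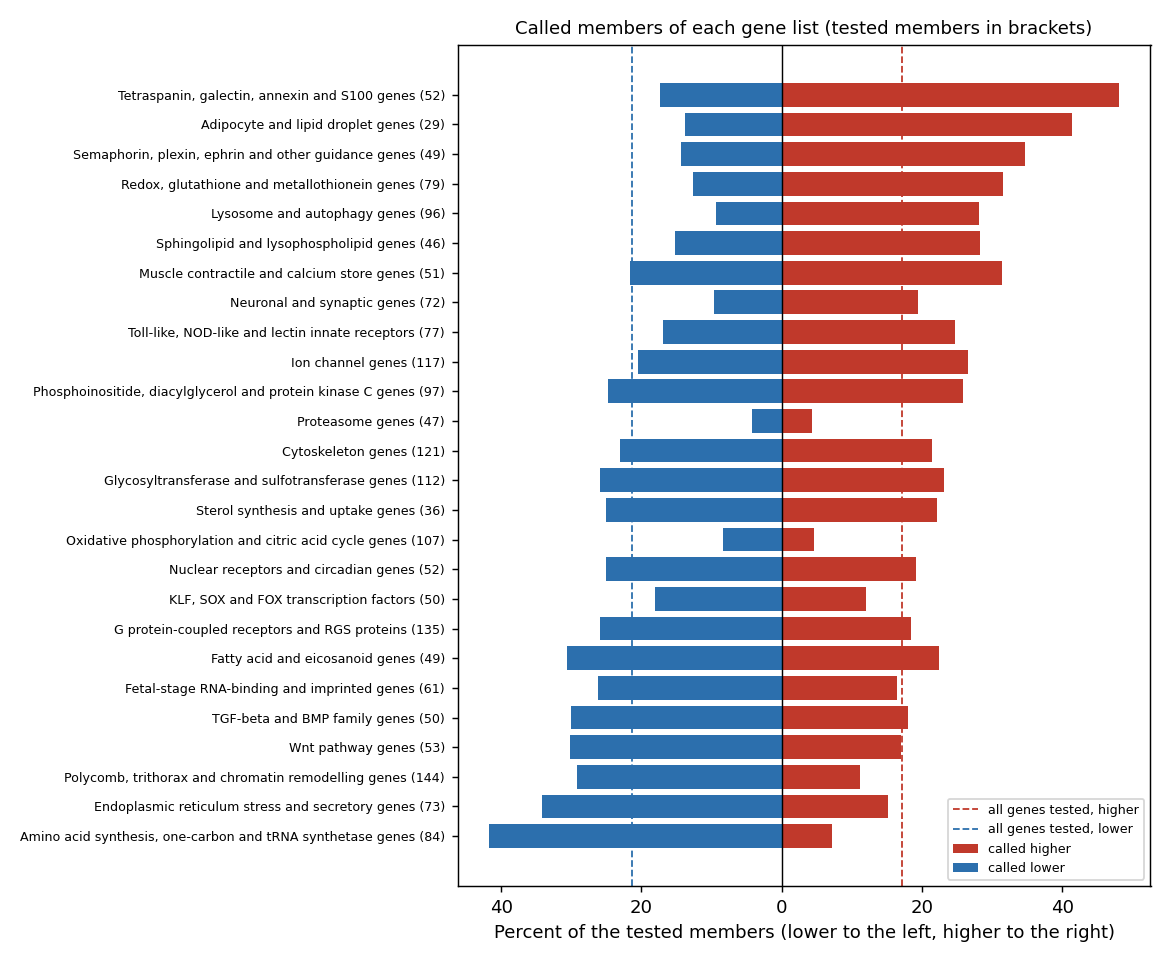
Percent of the tested members of each list shown that were called higher (right) or lower (left) with EBF1wt, with the number of tested members in brackets and dashed lines at the shares over all genes tested (17.1% higher and 21.3% lower). Tetraspanin, galectin, annexin and S100 genes stand at the top with 48.1% higher, and amino acid, one-carbon and tRNA synthetase genes at the bottom with 41.7% lower.

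G protein-coupled receptors signal through G protein subunits, and RGS proteins end the signal. Of 135 tested members, 25 rose and 35 fell (median 0.01; range 20 to 27 higher and 24 to 39 lower). These shares, 18.5% higher and 25.9% lower, lay near the 17.1% and 21.3% of all genes. Gng13, a G protein gamma subunit of taste and olfactory cells, had the largest fitted rise named here, from 0.58 and 0.07 to 8.57, 8.53 and 8.42 (at least 64.6-fold, 8.18 ± 0.17, adjusted p = 9.68e-07). Its Empty arrays were at background and its 3 EBF1wt arrays lay close together. The bound lies below the 143-fold rise of Asprv1, which was measured in both groups. Rgs8, a GTPase-activating protein of neurons, rose at least 17.6-fold at its brightest probe, from 0.80 and 0.15 to 6.48, 6.68 and 6.73. Its other kept probe differed by only 1.28. The beta subunit genes parted, with Gnb4 up by 2.90 ± 0.08 and Gnb3 at -2.15 ± 0.32 (adjusted p = 0.00232). Among the nucleotide receptors, P2ry6 fell from 6.26 and 6.30 to 4.12, 3.81 and 3.96 (-2.32 ± 0.31), and P2ry10 (-0.82 ± 0.12) and P2ry14 (-0.72 ± 0.08) fell with it. The prostacyclin receptor Ptgir rose by 3.26 ± 0.09 while the prostaglandin E receptor Ptger4 (-1.45 ± 0.10), the thromboxane receptor Tbxa2r (-1.06 ± 0.18) and the leukotriene receptor Cysltr1 (-1.60 ± 0.13) fell. Gpr158 was at least 1.47-fold lower and sat near background, and it did not pass with normexp (adjusted p = 0.405).

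Guidance molecules steer axons and migrating cells through semaphorin-plexin and ephrin-Eph contacts. Of 49 tested members 17 rose (34.7%) and 7 fell (14.3%), beside 17.1% and 21.3% of all genes. Their median was 0.18 (0.10 with dim members at their bound, range 11 to 18 higher and 5 to 10 lower). Sema3b, a secreted semaphorin, moved from 0.82 and 1.5 to 6.85, 6.69 and 6.94 (at least 20.2-fold, 5.67 ± 0.29, adjusted p = 2.35e-05). Flrt1, a membrane protein that interacts with FGF receptors, went from 0.84 and 0.66 to 5.35, 5.34 and 5.35 (at least 7.24-fold), whereas its relative Flrt3 fell by 1.12 ± 0.06, from 10.32 and 10.31 to 9.16, 9.18 and 9.24. Further ligands that rose were Sema3g (at least 8.46-fold), Sema7a (3.27 ± 0.10) and Efnb1 (2.78 ± 0.09). Among the plexin receptors Plxnb1 (at least 5.08-fold), Plxna1 (2.99 ± 0.13), Plxnd1 (1.33 ± 0.11) and Plxna3 (1.02 ± 0.09) rose. Ephb6, a kinase-dead Eph receptor, was at least 2.18-fold lower and did not pass with normexp (adjusted p = 0.429). The filter kept probes that passed on 2 of the 8 arrays, of which only 2 are Empty. Genes seen only with EBF1 thus enter more readily than genes seen only without it. The part of this in the count of risers was not tested. When only probes above background on all 8 arrays were kept, which left 13869 genes in all, 11 members rose.

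Of 50 tested TGF-beta and BMP genes 9 rose and 15 fell (median -0.01; range 6 to 9 higher and 9 to 17 lower), with 9 falling under normexp. Higher were 18% and lower 30% of them, beside 17.1% and 21.3% of all genes. Bmp8a, a BMP ligand of germ cells and fat, rose 37-fold, from 4.17 and 4.03 to 9.33, 9.17 and 9.42 (5.21 ± 0.11, adjusted p = 1.08e-06). Tgfbi, a TGF-beta-induced matrix protein, read 11.31 and 11.39 against 13.35, 13.51 and 13.47 (2.09 ± 0.16), and Tgfb1 rose by 0.73 ± 0.06. The receptor genes Acvrl1 (-0.99 ± 0.14) and Eng (at least 2.07-fold lower), the signal transducer Smad5 (-0.93 ± 0.09) and the inhibitor Smad7 (-0.59 ± 0.08) fell. Pmepa1, a feedback inhibitor, fell by 1.53 ± 0.35 (adjusted p = 0.0133) and did not pass without Empty 1 (adjusted p = 0.0796) or Empty 2 (0.0501), and with normexp neither Pmepa1 (0.338) nor Eng (0.557) passed.

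In the Wnt pathway, where Wnt ligands act through Frizzled receptors on beta-catenin and TCF factors, 9 of 53 tested genes rose and 16 fell (median -0.04; range 6 to 10 higher and 6 to 19 lower). The number that fell was 10 without Empty 1, 10 without EBF1wt 2 and 6 with normexp. The main fit called 17% of the tested Wnt genes higher and 30.2% lower, beside 17.1% and 21.3% of all genes. Wnt9a, a ligand, fell from 8.99 and 8.96 to 7.04, 7.22 and 7.25 (-1.81 ± 0.10, adjusted p = 3.02e-05), and the secreted Frizzled-related protein Sfrp2 from 7.51 and 7.23 to 5.53, 5.56 and 5.53 (-1.83 ± 0.16). Znrf3, a ligase that removes Frizzled receptors, fell by 1.40 ± 0.15. In the other direction, the R-spondin receptor Lgr6 rose at least 3.51-fold, from 2.91 and 0.97 to 4.50, 4.16 and 4.26, although Empty 1 and Empty 2 differed widely. Fzd1 rose at least 1.8-fold (adjusted p = 0.00999) and did not pass without Empty 2 (adjusted p = 0.0666) or with normexp (0.17). Of the TCF factors, Tcf7 (-0.77 ± 0.11) fell and Tcf7l2 rose (0.79 ± 0.07).

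Phosphoinositide, diacylglycerol and protein kinase C genes moved both ways (25 of 97 higher, 24 lower, median -0.04; range 19 to 25 higher and 16 to 29 lower). Rasgrp2, an exchange factor for Rap, rose from 11.33 and 11.01 to 13.22, 13.08 and 13.03 (1.94 ± 0.12, adjusted p = 5.85e-05), whereas Rasgrp1 (-0.84 ± 0.08) fell. Pip5k1b, a phosphatidylinositol phosphate kinase, rose by 1.46 ± 0.19, and the phosphatase Inpp4b fell by 1.24 ± 0.11, from 7.87 and 7.89 to 6.65, 6.53 and 6.75. The phospholipase C gamma genes parted, Plcg2 rising by 0.52 ± 0.06 and Plcg1 falling (-1.11 ± 0.09). Of the kinase C genes, Prkca (0.99 ± 0.10), Prkcb (0.99 ± 0.17), Prkcd (0.70 ± 0.11) and Prkce (1.22 ± 0.10) rose, while Prkcq, the T cell isoform, was at least 3.62-fold lower, with signals of 4.75 and 4.43 against 2.45, 2.30 and 1.17. The Prkcq call was lost with normexp (adjusted p = 0.144).

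Ion channel genes rose in 31 of 117 tested members and fell in 24, with a median of -0.01 (range 19 to 32 higher and 14 to 30 lower). The list was drawn partly by symbol pattern and holds 3 called TMEM genes that are not channels. Ano1, a calcium-activated chloride channel, read 2.86 and 0.66 on the Empty arrays, both at background, and 7.4, 7.26 and 7.22 with EBF1wt (at least 27.9-fold, 5.53 ± 0.57, adjusted p = 0.00046). Cacna1b, the pore of the N-type calcium channel, was measured on 1 of 2 Empty arrays and went from 0.68 and 2.22 to 6.87, 6.42 and 6.97 (5.30 ± 0.44). Best1 (3.23 ± 0.13), Cacna1s (2.29 ± 0.20), the proton channel Hvcn1 (1.97 ± 0.06) and Trpc6 (at least 2.4-fold) rose too. Potassium channel genes supplied the largest falls. Kcne3, an accessory subunit, fell from 6.71 and 6.72 to 3.75, 3.71 and 3.63 (-3.02 ± 0.09, adjusted p = 2.69e-06). Kcnh2 fell by 2.55 ± 0.22, and Kcnmb1 was at least 1.85-fold lower, a call lost with normexp (adjusted p = 0.141). With only probes above background on all 8 arrays, which leaves dim members untested, 19 members rose, and with normexp 14 fell.

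Contractile and calcium-store genes of muscle rose in 16 of 51 tested members and fell in 11, with a median of 0.24 (range 13 to 17 higher and 6 to 14 lower). Without Empty 1 the number that fell was 6. Mylk, the myosin light chain kinase, went from 3.45 and 3.23 to 8.05, 7.82 and 8.02, a 24.6-fold rise (4.62 ± 0.13, adjusted p = 2.21e-06), and Myl4, an atrial light chain, rose by 3.37 ± 0.11. The troponin genes moved both ways: the fast skeletal Tnni2 (2.08 ± 0.14) and Tnnt3 (0.86 ± 0.12) rose, whereas the slow skeletal Tnni1 fell from 12.08 and 12.02 to 10.79, 10.56 and 10.43 (-1.46 ± 0.14). Tropomyosin Tpm2 rose by 1.24 ± 0.12 while Tpm1 (-0.53 ± 0.10) and Tpm4 (-0.66 ± 0.12) fell. Tagln2, an actin-binding transgelin, fell from 13.26 and 13.27 to 12.24, 12.20 and 11.96 (-1.13 ± 0.10).

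Of 121 tested cytoskeleton genes 26 rose and 28 fell (median 0.00; range 17 to 27 higher and 16 to 42 lower). Without Empty 1 the number that fell was 16, and without Empty 2 the number that rose was 17. In the main fit 21.5% rose and 23.1% fell, near the 17.1% and 21.3% of all genes. Krt7, a simple-epithelial keratin, went from 0.94 and 2.25 to 4.79, 4.71 and 4.67 (at least 4.4-fold, 3.13 ± 0.33, adjusted p = 0.000533). Its other kept probe differed by only 0.59. Krt79 was at least 1.12-fold higher (adjusted p = 0.00738) and did not pass without Empty 2 (adjusted p = 0.0542), with normexp (0.227), with a floor of 4 (0.205) or in the authors' deposited values (0.268). The unconventional myosin Myo10 (1.79 ± 0.13) and the actin bundler Fscn1 (1.1 ± 0.12) rose. Septin4, a GTP-binding filament protein, fell from 5.77 and 5.58 to 3.32, 3.92 and 3.80 (-2.0 ± 0.20), and Septin3 (-2.07 ± 0.46) fell too but did not pass without Empty 2 (adjusted p = 0.0698) or with normexp (0.0847). Lmna (-0.91 ± 0.09) and Flna (-0.42 ± 0.06) fell by less than 1 log2 unit.

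Neuronal and synaptic genes rose in 14 of 72 tested members and fell in 7 (median 0.05, -0.08 to 0.14 over the alternatives; range 6 to 16 higher and 5 to 11 lower). With probes above background on all 8 arrays 6 rose, but that setting leaves dim members untested. Over all genes, 5670 of the 5671 main calls that it still tested stayed called. Omp, the olfactory marker protein, went from 1.44 and 2.16 to 5.92, 5.92 and 5.80 (at least 10.1-fold, 4.08 ± 0.23, adjusted p = 3.1e-05). Chrna9, an acetylcholine receptor subunit of hair cells, rose 14.6-fold by the fitted change, from 2.95 and 2.20 to 6.46, 6.48 and 6.38. Neither Empty array passed the background flag for it, although both signals lay above the dimmest that passed (2.92 and 2.06). Chrna9 therefore has no separate bound. Syt7, a synaptotagmin that senses calcium in exocytosis, rose at least 3.5-fold. Shisa2, an endoplasmic reticulum protein that holds back Wnt and FGF receptors, fell from 8.54 and 8.46 to 6.73, 6.72 and 6.85 (-1.73 ± 0.07, adjusted p = 6.63e-06). Chrnb2 was at least 1.18-fold lower (adjusted p = 0.0241) and its call was lost without Empty 1 (adjusted p = 0.136), Empty 2 (0.0542) or EBF1wt 2 (0.0642), and its difference was 0.02 with normexp.

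Adipocyte and lipid droplet genes, which store and release triglyceride, rose in 12 of 29 tested members (41.4%) and fell in 4, with a median of 0.28 (range 8 to 13 higher and 3 to 5 lower). Dgat2, which makes triglyceride from diacylglycerol, went from 7.33 and 7.45 to 12.43, 12.60 and 12.57, a 35.4-fold rise (5.15 ± 0.11, adjusted p = 1.02e-06) carried by all 3 probes. Mgll, the monoacylglycerol lipase, was at background without EBF1 (2.34 and 1.53) and read 7.28, 7.02 and 7.24 with it (at least 25.8-fold). Its 3 kept probes differed by 2.19 to 6.41. The adipokine gene Adipoq (2.10 ± 0.10), the droplet coat gene Plin3 (1.28 ± 0.08) and the fat-cell factor Pparg (1.01 ± 0.07) rose. The fatty acid carrier Fabp4 fell from 7.65 and 7.79 to 6.28, 6.02 and 6.41 (-1.49 ± 0.14, adjusted p = 0.00028), and the lipase Lipe (-0.71 ± 0.14) and the droplet protein Hilpda (-0.80 ± 0.10) fell. The stromal marker sums given above, of the feeder type that can form fat cells, moved in the same direction, and their part in this list was not tested.

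Fatty acid and eicosanoid genes fell in 15 of 49 tested members and rose in 11 (median -0.09, -0.19 to 0.11 over the alternatives; range 9 to 13 higher and 8 to 18 lower), and 8 fell without Empty 1 and 9 without Empty 2. In the leukotriene and prostaglandin branch, Ltc4s, leukotriene C4 synthase, rose from 1.43 and 0.11 to 5.10, 4.84 and 4.89 (at least 5.48-fold, 4.18 ± 0.39, adjusted p = 0.000306), whereas Alox5ap (-0.63 ± 0.12), which presents arachidonate to 5-lipoxygenase, fell. Pla2g2d, a secreted phospholipase, rose at least 3.88-fold. Ptgs1, cyclooxygenase 1, fell from 6.71 and 6.54 to 5.00, 4.56 and 5.09 (-1.74 ± 0.31), Hpgds fell by 1.69 ± 0.17, and Ptgds rose by 1.56 ± 0.13. Scd1, a desaturase, rose by 1.65 ± 0.11 and the elongase Elovl6 fell by 1.30 ± 0.06. Cpt1a, the liver-type carnitine transferase, rose by 0.71 ± 0.10 while the brain-type Cpt1c fell from 5.30 and 5.08 to 3.62, 3.48 and 2.89 (-1.86 ± 0.33).

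Among 36 tested sterol genes 8 rose and 9 fell (median -0.06; range 5 to 9 higher and 3 to 12 lower). The number that rose was 5 without Empty 2. The number that fell was 3 without Empty 1, 4 without Empty 2, 5 without EBF1wt 1 and 4 without EBF1wt 2. Abca1, the cholesterol exporter, went from 4.18 and 4.30 to 6.97, 7.02 and 6.99 (2.75 ± 0.12, adjusted p = 9.46e-06), and Abcg1 rose by 0.62 ± 0.12, a call lost without Empty 2 (adjusted p = 0.0545). Among enzymes of synthesis Lss, lanosterol synthase, fell (9.08 and 9.06 against 8.36, 8.23 and 8.15, -0.83 ± 0.08), while Idi1 (0.51 ± 0.08) and Mvk (0.57 ± 0.08) rose. The main shares of sterol genes, 22.2% higher and 25% lower, lay near the 17.1% and 21.3% of all genes. Sphingolipid and lysophospholipid genes rose in 13 of 46 members and fell in 7 (median 0.08, -0.02 with scaling to a common median; range 9 to 14 higher and 3 to 9 lower), with 4 falling without Empty 1 and 3 without Empty 2. Sphk1, which makes sphingosine 1-phosphate, rose from 4.93 and 4.79 to 7.27, 7.53 and 7.25 (2.49 ± 0.19, adjusted p = 0.000142). The lipid phosphatase Plpp1 rose by 1.88 ± 0.12, the receptor Lpar2 fell by 1.11 ± 0.06, and Sgpp1 fell by 1.07 ± 0.23 but did not pass without Empty 2 (adjusted p = 0.0719) or with normexp (0.336).

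Redox, glutathione and metallothionein genes rose in 25 of 79 tested members (31.6%) and fell in 10 (median 0.13; range 14 to 27 higher and 6 to 12 lower), with 16 rising without Empty 1 and 15 without Empty 2, and 14 in the authors' deposited values. Nox1, an NADPH oxidase that makes superoxide, was measured on 1 of 2 Empty arrays and rose from 1.52 and 2.50 to 6.04, 6.19 and 6.36 (4.19 ± 0.29, adjusted p = 7.94e-05). Gstm1, a mu-class glutathione transferase, went from 10.29 and 9.98 to 13.16, 13.19 and 13.23 (8.34-fold, 3.06 ± 0.12), and its close paralog Gstm3, which its probe may not separate from it, by 2.93 ± 0.12. Gstt2, a theta-class transferase, fell from 7.54 and 7.50 to 6.50, 6.47 and 6.42 (-1.06 ± 0.06), and Gpx2 fell by 0.80 ± 0.15, a call lost with normexp (adjusted p = 0.175).

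Tetraspanin, galectin, annexin and S100 genes had a median of 0.29 (0.18 with dim members at their bound; range 19 to 25 higher and 6 to 10 lower), with 25 of 52 higher and 9 lower. S100a3, a calcium-binding protein of hair cuticle, rose from 4.59 and 4.10 to 8.82, 8.87 and 8.83 (22.5-fold, 4.49 ± 0.16, adjusted p = 4.99e-06). Other S100 genes rose too, among them S100a5 (1.39 ± 0.12), S100a6 (1.35 ± 0.09) and S100a13 (0.75 ± 0.06), while S100a10 (-0.91 ± 0.12) fell. The galectins Lgals6 (4.92 and 4.92 against 8.26, 8.23 and 8.29, 3.34 ± 0.13) and Lgals4 (3.12 ± 0.11) rose, are near-identical and may share probes, and Lgals3 fell by 0.83 ± 0.08. Of the tetraspanins named here, Cd9 (1.77 ± 0.08), Cd53 (0.70 ± 0.12), Cd37 (0.49 ± 0.07) and Cd82 (0.57 ± 0.08) rose and Tspan4 fell from 12.21 and 12.04 to 10.38, 10.43 and 10.39 (-1.73 ± 0.09, adjusted p = 2.01e-05). Anxa3, an annexin of neutrophil granules, fell by 1.43 ± 0.12, from 8.34 and 8.35 to 6.75, 6.96 and 7.04.

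Toll-like, NOD-like and lectin receptors sense microbes, and 19 of 77 tested genes rose while 13 fell (median 0.11; range 15 to 20 higher and 10 to 15 lower). Trem1, an activating receptor of myeloid cells measured on 1 of 2 Empty arrays, rose from 2.19 and 2.79 to 4.35, 4.55 and 4.46 (1.96 ± 0.28, adjusted p = 0.00189). The Toll-like receptor Tlr2 (1.32 ± 0.11) and the pathway inhibitor Irak3 (1.87 ± 0.16) rose. Among cytosolic sensors Nod2 (1.11 ± 0.15) and Naip2 (1.05 ± 0.12) rose and the adaptor Pycard fell by 1.17 ± 0.08. Mrc1, the macrophage mannose receptor, fell from 5.86 and 5.81 to 3.81, 4.23 and 4.03 (-1.81 ± 0.25), and Siglech, of plasmacytoid dendritic cells, was at least 1.77-fold lower, a call lost with normexp (adjusted p = 0.394). Clec4g rose at least 1.7-fold (adjusted p = 0.0234) and did not pass without Empty 1 (adjusted p = 0.123), without EBF1wt 1 (0.0643), without a filter (0.0532) or with the replicate block (0.0816). The macrophage marker sums above were lower with EBF1wt while their median signal and Csf1r were higher. The part of these markers here was not tested.

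Glycosyltransferases and sulfotransferases build surface glycans and proteoglycan chains; 26 of 112 rose and 29 fell (median -0.04; range 19 to 26 higher and 22 to 37 lower). That is 23.2% higher and 25.9% lower, near the 17.1% and 21.3% of all genes. Beside Chst3, the extracellular heparan sulfatase Sulf2 rose from 5.43 and 5.19 to 8.80, 8.86 and 8.95 (11.8-fold, 3.56 ± 0.11, adjusted p = 2.69e-06). Chondroitin synthesis genes parted, Chsy1 (1.89 ± 0.09) rising and Chpf (-1.03 ± 0.12) and Chst11 (-1.11 ± 0.13) falling. Cmah, which hydroxylates sialic acid, fell from 6.93 and 6.77 to 4.90, 5.09 and 4.91 (-1.88 ± 0.15). Mgat3, which adds bisecting N-acetylglucosamine, was at least 2.54-fold lower and did not pass without Empty 1 (adjusted p = 0.0529) or with normexp (0.14). The Notch-modifying fringe genes Lfng (-1.15 ± 0.12) and Mfng (-0.76 ± 0.07) fell.

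Chromatin regulators fell more often than they rose, as did all tested genes (21.3% lower and 17.1% higher). Of 144 tested Polycomb, trithorax and remodelling genes 42 fell (29.2%) and 16 rose (median -0.11, -0.21 to -0.08 over the alternatives; range 10 to 18 higher and 24 to 59 lower), and 26 fell without Empty 1 and 27 without Empty 2. In the authors' deposited values 24 of the 144 fell, beside 2530 of 16306 genes, so the excess over all genes was small there. No member fell 2-fold by its fitted change (0 of 144), and 1 rose that far. Setdb2, a histone methyltransferase, went from 3.59 and 3.99 to 4.93, 5.10 and 5.14 (1.27 ± 0.14, adjusted p = 0.000581), and Smarcd2, a BAF complex subunit, from 10.44 and 10.60 to 11.45, 11.39 and 11.38 (0.89 ± 0.12). Of the Polycomb subunits, Cbx7 fell from 6.85 and 6.79 to 5.84, 5.85 and 6.07 (-0.90 ± 0.09) and Pcgf5 rose by 0.66 ± 0.08. Prdm8, a PR-domain factor, fell by 0.97 ± 0.15 and did not pass with normexp (adjusted p = 0.124).

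KLF, SOX and FOX factors rose in 6 of 50 tested genes and fell in 9 (median -0.04; range 4 to 7 higher and 6 to 11 lower). Both shares, 12% higher and 18% lower, lay below the 17.1% and 21.3% of all genes. Klf4, a zinc-finger factor of epithelia and monocytes, rose from 8.07 and 8.08 to 10.60, 10.55 and 10.53 (5.6-fold, 2.49 ± 0.07, adjusted p = 2.21e-06), the only member called at least 2-fold higher. Foxs1 rose by 0.70 ± 0.09, and Klf8 (-0.96 ± 0.16), Sox4 (-0.90 ± 0.11) and Sox11 (-0.92 ± 0.11) fell. Foxf1 fell by 1.02 ± 0.24 but did not pass without Empty 1 (adjusted p = 0.05), without Empty 2 (0.0948) or with normexp (0.619). Nuclear receptor, retinoid and circadian genes rose in 10 of 52 and fell in 13 (median 0.02, -0.08 to 0.12 over the alternatives; range 7 to 11 higher and 7 to 14 lower), with 7 falling without Empty 1 and 8 without Empty 2. Their main shares were 19.2% higher and 25% lower, near those of all genes (17.1% and 21.3%). Retinaldehyde enzymes led, Aldh1a3 (at least 3.33-fold, 0.58 and 0.00 against 4.41, 4.27 and 4.00) and Dhrs3 (6.39 and 6.31 against 8.38, 8.27 and 8.26, 1.96 ± 0.08). The clock output factor Tef rose by 1.60 ± 0.11. Bhlhe41 (at least 1.87-fold lower) did not pass without Empty 1 (adjusted p = 0.0989) or with normexp (0.669), and Nr0b2 (-1.43 ± 0.33) did not pass without Empty 1 (0.073), Empty 2 (0.0629) or with normexp (0.207).

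Fetal-stage RNA-binding and imprinted genes rose in 10 of 61 and fell in 16 (median -0.04; range 7 to 12 higher and 8 to 20 lower), with 9 falling without Empty 1, 10 without Empty 2, 9 without EBF1wt 2 and 10 when only these 5 arrays were fitted. With the main fit 16.4% were higher and 26.2% lower, near the 17.1% and 21.3% of all genes. H19, an imprinted noncoding RNA of fetal tissues, rose from 9.34 and 9.20 to 11.77, 11.34 and 11.74 (5.1-fold, 2.35 ± 0.25, adjusted p = 0.000558). Hmga2, a chromatin protein of fetal stem cells, fell from 5.72 and 5.43 to 4.33, 4.38 and 4.43 at its brightest probe (-1.19 ± 0.13), and did not pass when its 3 probes were averaged (-0.83, adjusted p = 0.225). Igf1, a growth factor, fell by 1.29 ± 0.18, and the decay factors Zfp36 (0.76 ± 0.11) and Zfp36l1 (0.77 ± 0.09) rose. Celf4 rose by 1.27 ± 0.18 and did not pass with normexp (adjusted p = 0.0646).

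**Figure D5:**
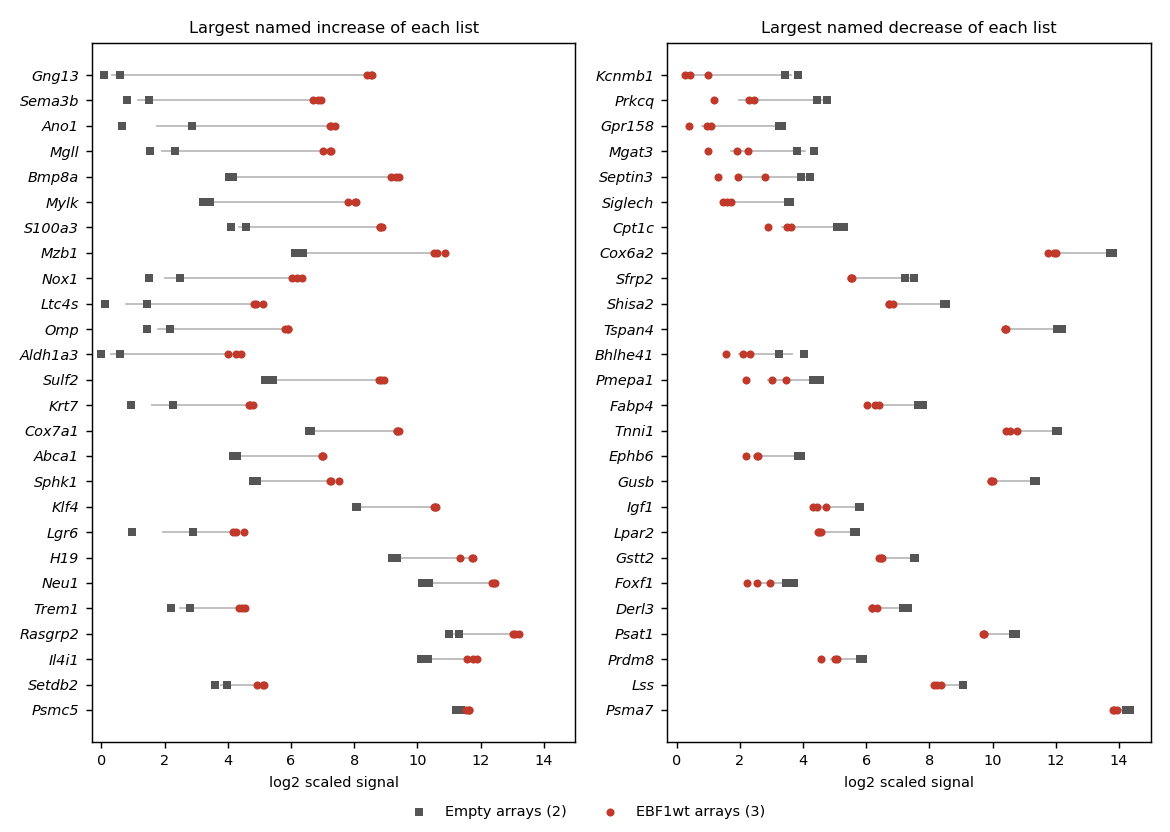
Log2 scaled signal on each Empty (squares) and EBF1wt (circles) array for the largest named increase (left) and decrease (right) of each gene list shown, in order of the fitted difference; grey lines join the group means. Gng13 tops the increases at 8.18 and Kcnmb1 the decreases at -3.07, each at background in 1 group, with bounds of 64.6-fold and 1.85-fold. That no gene shown has overlapping groups follows from the choice.

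Amino acid synthesis, one-carbon and tRNA synthetase genes, which feed protein and nucleotide synthesis, fell in 35 of 84 members (41.7%) and rose in 6, with a median of -0.24 (-0.34 to -0.17 over the alternatives; range 3 to 7 higher and 26 to 46 lower). Psat1, of serine synthesis, fell from 10.75 and 10.65 to 9.74, 9.72 and 9.69 (-0.98 ± 0.07, adjusted p = 7.3e-05), and Gpt2, a mitochondrial alanine transaminase, from 7.31 and 7.36 to 6.49, 6.47 and 6.28 (-0.92 ± 0.11). The mitochondrial folate enzymes Shmt2 (-0.66 ± 0.06), Mthfd2 (-0.64 ± 0.11) and Mthfd1l (-0.46 ± 0.08), the polyamine genes Odc1 (-0.53 ± 0.07), Srm (-0.51 ± 0.07) and Sms (-0.53 ± 0.06) and the synthetases Iars (-0.60 ± 0.06) and Tars (-0.48 ± 0.06) fell. Beside Il4i1, the branched-chain transaminase Bcat2 rose by 0.59 ± 0.08. The fitted falls were all under 2-fold (0 of 84 beyond it).

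Endoplasmic reticulum stress and secretory genes fell in 25 of 73 (34.2%) and rose in 11 (median -0.11, -0.20 to -0.08 over the alternatives; range 9 to 12 higher and 12 to 32 lower), with 12 falling without Empty 1, 13 without Empty 2 and 13 in the authors' deposited values. Mzb1, a chaperone of antibody assembly in B cells, rose from 6.37 and 6.12 to 10.88, 10.63 and 10.54 (21.7-fold, 4.44 ± 0.14, adjusted p = 3.55e-06), and Syvn1, a ligase of protein disposal, from 12.87 and 12.75 to 14.08, 14 and 14.05 (1.24 ± 0.08). The stress factors Xbp1 (0.74 ± 0.07) and Ddit3 (1.15 ± 0.09) rose. Among lumenal proteins Hsp90b1 (-0.54 ± 0.06), Pdia4 (-0.58 ± 0.07) and Creld2 (-0.65 ± 0.09) fell. Derl3 fell from 7.34 and 7.16 to 6.19, 6.34 and 6.20 (-1.0 ± 0.10), and Kdelr3 (-0.94 ± 0.24) did not pass without Empty 2 (adjusted p = 0.125), EBF1wt 1 (0.0564) or EBF1wt 3 (0.0537) or with normexp (0.703).

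Lysosome and autophagy genes rose in 27 of 96 tested members (28.1%) and fell in 9 (median 0.06; range 17 to 27 higher and 3 to 16 lower). Scaling to a common median gave a median of -0.03 and 16 lower. Without Empty 1 the counts were 17 higher and 3 lower, and 5 fell without Empty 2 and without EBF1wt 2. Neu1, lysosomal sialidase, rose from 10.14 and 10.36 to 12.41, 12.47 and 12.36 (4.47-fold, 2.16 ± 0.08, adjusted p = 6.38e-06) with its 3 probes in the same direction, and Map1lc3a, an autophagosome coat protein, from 6.48 and 6.61 to 8.54, 8.52 and 8.30 (1.91 ± 0.10). The lysosomal master factor Tfeb (0.78 ± 0.07), the cathepsins Ctsz (0.89 ± 0.10) and Ctsd (0.53 ± 0.09) and the proton-pump subunit Atp6v1b2 (0.93 ± 0.07) rose. Gusb, the beta-glucuronidase, fell from 11.39 and 11.31 to 9.96, 9.94 and 10.00 (-1.38 ± 0.08), and the autophagy protein gene Wipi1 fell by 0.92 ± 0.15.

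Oxidative phosphorylation genes rose in 5 and fell in 9 of 107 tested members, with a median of -0.04 equal to that of all genes (range 2 to 7 higher and 2 to 24 lower). The number that rose was 2 without Empty 2 and 3 without EBF1wt 2. The number that fell was 4 without Empty 1, 3 without Empty 2, 5 without EBF1wt 2 and 5 without EBF1wt 3, and 24 with scaling to a common median. Both genes that moved at least 2-fold encode muscle-type subunits of cytochrome c oxidase. Cox7a1 rose from 6.63 and 6.56 to 9.36, 9.42 and 9.36 (6.91-fold, 2.79 ± 0.08, adjusted p = 1.95e-06) and Cox6a2 fell from 13.80 and 13.73 to 11.96, 12.01 and 11.75 (-1.86 ± 0.14, adjusted p = 0.00013). The complex I gene Ndufb3 rose by 0.61 ± 0.07, and the mitochondrial regulator Nrf1 fell by 0.41 ± 0.08, a call lost with normexp (adjusted p = 0.46) and in the authors' deposited values (0.302). Proteasome genes rose in 2 and fell in 2 of 47 (median -0.14; range 0 to 2 higher and 1 to 26 lower), and 26 fell with scaling to a common median. Psma7, a core subunit, was at 14.35 and 14.23 against 13.82, 13.93 and 13.85 (-0.42 ± 0.07). The calls of Psmc5 (0.28 ± 0.08), Psmd8 (0.27 ± 0.06) and Psmg2 (-0.23 ± 0.07) did not hold when single arrays were left out. Psmc5 did not pass without Empty 2, EBF1wt 1, EBF1wt 2 or EBF1wt 3 (adjusted p = 0.172, 0.0779, 0.0527 and 0.075), Psmd8 without Empty 1 (0.0672) and Psmg2 without Empty 1, EBF1wt 1, EBF1wt 2 or EBF1wt 3 (0.189, 0.084, 0.0514 and 0.0808).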

How the data were processed

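Per the file headers and the submitters' processing notes, Agilent Feature Extraction 10.5.1.1 gave each spot an intensity, the processed signal, spatially detrended by the authors' software and replaced by a surrogate near background; probe positions in the deposited files are mm9. The authors' deposited value table holds log2 values (column medians 4.90 to 4.93, r = 0.971 to 0.979 with the scanner values), whose normalization the sources used here do not give, and served as an alternative. Here the processed signal of each array was scaled to a common 75th percentile, floored at 1 and log2 transformed, and control and outlier spots were left out. Of 41174 probes, 24983 that passed the well-above-background flag on 2 or more of the 8 arrays were kept, and 24 with a missing value were left out. The probe brightest on average over all 8 arrays stood for each of 16306 genes (5960 had several probes). Names were updated through RefSeq accessions for 27902 probes, current symbols for 5449 and older symbols for 370, and 7453 kept the file's name. limma 3.58.1 (R 4.3.3) fitted all 8 arrays with the 3 groups and no covariate, with Benjamini-Hochberg adjustment over all genes; residual degrees of freedom were 5 and prior degrees of freedom 1.8, and the number of arrays limits the precision. In simulated data 50 genes each were changed by 0.5, 1, 2 and 4 log2 units and all others were left unchanged. The noise was independent, without a slide effect. Of the changed genes 36%, 70%, 88% and 98% were recovered, with 9 false calls among the unchanged. Far fewer genes were changed there than the 38.4% called here, so these rates do not carry over to this comparison.

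The rule for single genes took the 2 largest called increases and decreases of each list and 10 of each outside the lists, leaving out genes that earlier text named, predicted models and receptor segments. The gene lists, their members and the tests were chosen with earlier results of these data known. Where no array of a group passed that flag, the fold is a bound taken against the dimmest signal of each array that passed it. That signal is a lenient limit, and a gene's own signal was used where it was brighter. Promoter sequences and gene order came from RefSeq, GRCm38.p6. Exon and intron annotation of mm9 was not used here. Alternatives changed background correction, scaling, filter, floor, probe summary, arrays in the fit, slide and replicate blocks, and left out each array. A few single genes and 1 gene list are not reported here.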

Additional observations from a re-analysis of the deposited data

How the results depend on the processing

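Over 18 alternatives, 126 of the 128 genes named by rule kept their direction in every alternative that tested them. Outside the fits within a slide 31 lost a call. With probes above background on all 8 arrays only 79 of the 128 were tested. The alternatives reuse the same arrays and the genes were chosen for large differences, so a kept direction supports nothing. The exceptions in direction were Chrnb2, at 0.02 with normexp background correction, and Gpr158, at 0.08 without a filter on dim probes. Sizes held less well than directions. The difference ran from 1.64 to 6.08 for Cacna1b, 3.76 to 7.38 for Ell3 and 1.22 to 4.68 for Nox1, each measured on 1 Empty array. Among genes measured on all 5 arrays it ran from 1.12 to 2.84 for Abca1 and -1.91 to -0.53 for Mrc1, but from 2.02 to 2.33 for Neu1. The number of genes called was 4386 with normexp, 6250 with quantile normalization, 4588 in the authors' deposited values, 6244 with the mean over probes, 6257 with a floor of 4, 5407 with only these 5 arrays in the fit, 5782 with the slide as a block, and 6130 of 13869 genes with probes above background on all 8 arrays. Without a filter on dim probes it was 4425 of 27320 genes (2134 higher, 2291 lower). Scaling to a common median gave 7151 calls, of which 31% were higher against 44.6% otherwise. Leaving out 1 array gave 4192 to 5553 calls, 2064 to 2483 of them higher and 1990 to 3070 lower, with the lowest total without Empty 1. Within slide 1, which holds 1 Empty and 1 EBF1wt array, 133 genes were called (122 higher, 11 lower; 4319 at an unadjusted p under 0.05); its spread comes from the EBF1-H240A arrays alone, so it does not show replication. Within slide 2, 398 were called (339 higher, 59 lower; 3950 unadjusted); both fits have fewer arrays. With the replicate number as a block 4809 genes were called (2254 higher, 2555 lower). What the replicate numbers share is not stated in the labels. Deviations of same-numbered arrays from their group means correlated at -0.039 (Empty 1 and EBF1wt 1) and -0.331 (Empty 2 and EBF1wt 2). Those of Empty and EBF1wt arrays on 1 slide correlated at 0.331 (Empty 1 and EBF1wt 2), 0.039 (Empty 2 and EBF1wt 1) and 0.234 (Empty 2 and EBF1wt 3). With only 2 Empty arrays their deviations mirror each other (correlation -1). A value for 1 of them is thus that for the other with the sign changed. These correlations cannot separate number from slide, and nothing is read from them. The ranges of list medians and counts leave out the fits within a slide. The motif shares by direction are not given because too few genes had a promoter in the table, so their alternatives were not run.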
